A study of Mus musculus with 4 samples.

Results

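Serpins are a family of protease inhibitors that trap a target protease by a change of shape and then form a stable complex with it; some members have lost this activity and carry hormones, chaperone collagen or act as signals. Hepatocytes secrete many of the clade A, C, D and F members into plasma, where they restrain neutrophil elastase, clotting proteases and plasmin. Clade B members mostly stay inside cells, where they protect leukocytes and epithelia from their own proteases. The genes described here are all those whose symbol in the array's annotation starts with Serpin, taken from probes that name 1 gene. They comprise 37 genes on 39 probes, out of 13954 genes on the 17637 probes that name 1 gene; the arrays hold 28845 probes in all. Clades A, C, D and F account for 18 probes and the other clades (B, G, H and I) for 21. The RefSeq table lists 69 Serpin symbols, and the 32 that no probe names, among them Serpina1c and Serpina1d, were not analysed here.

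The samples were livers of male mice of the inbred strain C57Bl/6J, whose RNA was amplified and compared on 4 two-colour oligonucleotide arrays. The Cy5 channel held the diet samples: atherogenic high-fat feeding of 24 weeks and of 6 weeks, and atherogenic feeding without the added fat (called plain here) of 24 weeks and of 6 weeks. The Cy3 channel held liver RNA of mice on standard chow, labelled with the same number of weeks except on the plain 6-week array, whose chow label names none. Each condition had 1 array and no dyes were swapped, so no condition has a replicate error, and a probe's dye preference and its response to diet cannot be told apart. The sources used here do not give the diets' composition, the number of animals behind each RNA, or whether arrays shared a chow sample. High-fat and plain livers were not on the same array, so differences between these diets are differences of ratios over chow. Differences between arrays or their chow samples cannot be told apart from them. Values are log2 ratios of diet over chow, and their size rests on reading the deposited numbers as base 10 logarithms, since the base is not stated. All 39 serpin probes had a value on the 4 arrays. Median log2 ratios over all probes lay between -0.06 and 0.02. The arrays give ratios without spot intensities, so no level, and no check that a probe stood above background or that the tissue was liver, can be taken from them. In whole liver, fewer cells of a type and less RNA per cell cannot be told apart.

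**Figure D1:**
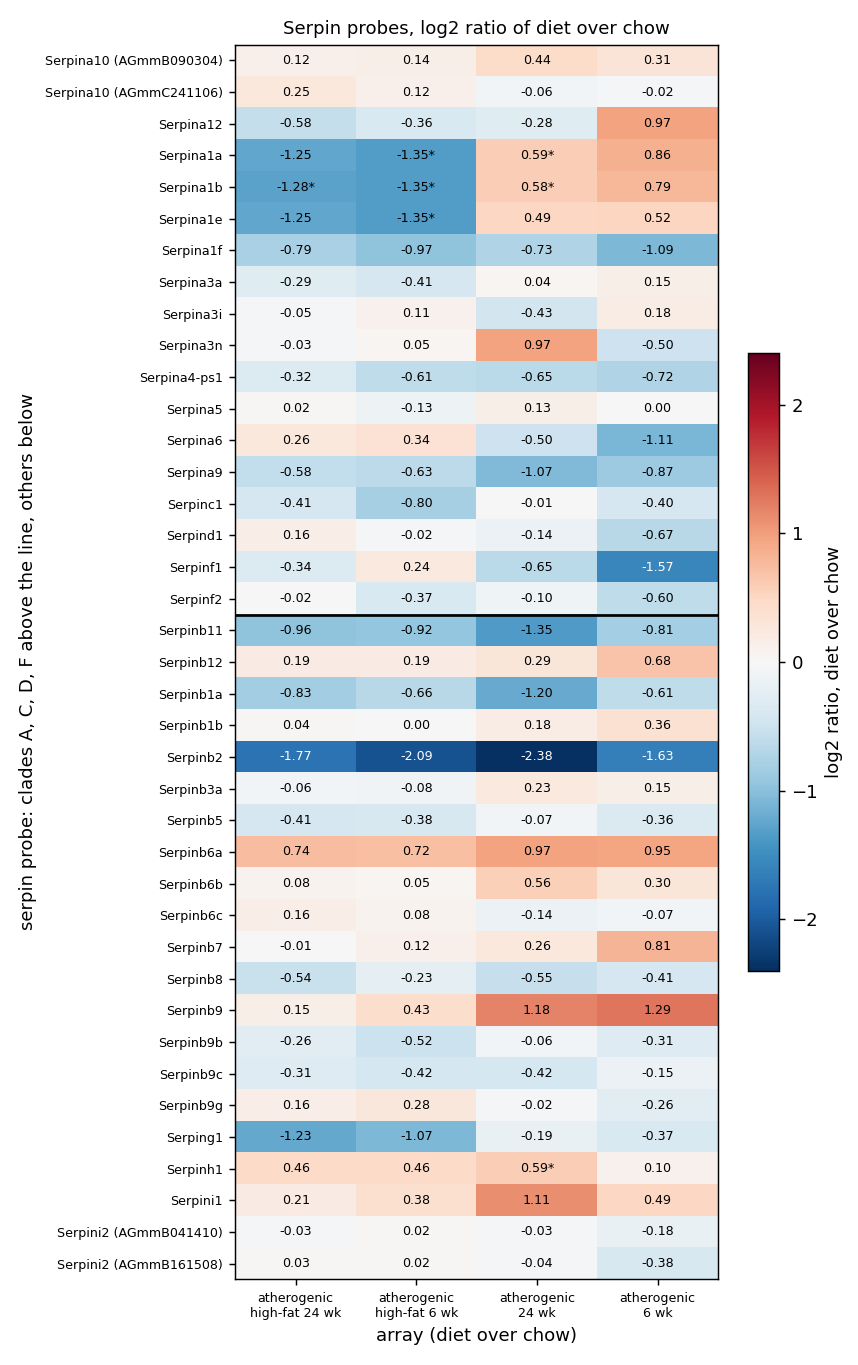
Log2 ratio of diet over chow for each of the 39 serpin probes (vertical axis, clades A, C, D and F above the line, other clades below) on the 4 arrays (horizontal axis), with the value printed in each cell and an asterisk where it lies at a value repeated by many probes of that array. Serpinb2 is the lowest on every array, from -2.38 to -1.63, and Serpina1a, Serpina1b and Serpina1e change sign between the high-fat and the plain arrays.

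Among the secreted members, 3 probes belonged to alpha-1-antitrypsin, the abundant plasma inhibitor of neutrophil elastase, which mice encode in several near-identical genes. Serpina1a stood at -1.25 and -1.35 on the high-fat 24-week and 6-week arrays, against 0.59 and 0.86 on the plain 24-week and 6-week arrays. Serpina1b stood at -1.28 and -1.35 on the high-fat arrays, against 0.58 and 0.79 on the plain arrays. Serpina1e stood at -1.25 and -1.35 on the high-fat arrays, against 0.49 and 0.52 on the plain arrays. All 3 probes were thus below chow with high fat and above chow without it, with no overlap. Of all probes, 23.3% had both high-fat arrays on one side of chow and both plain arrays on the other. The 3 antitrypsin probes were nearly equal to each other on the high-fat arrays.

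Many unrelated probes carried the same values, which limits what these ratios can show. On the high-fat 6-week array the deposited value -0.406 was held by 14 probes, where each of the surrounding values was held by 1.6 on average. The antitrypsin probes Serpina1a, Serpina1b and Serpina1e all had exactly that value. On the high-fat 24-week array -0.384 was held by 14 probes against 2.28 at surrounding values, and Serpina1b lay at it. Serpina1a and Serpina1e, at -0.377, lay outside the tolerance of 0.003 and were not marked there. On the plain 24-week array 0.177 was held by 63 probes against 29.0, and Serpina1a and Serpina1b lay within 0.003 of it, as did Serpinh1. That last mark is weak on its own, since 242 probes lay within 0.003 of 0.177 and the surrounding values would give 203. No single value passed the same rule on the plain 6-week array.

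In all, 12 probes lay at the repeated value on the high-fat 24-week, high-fat 6-week and plain 24-week arrays at once. Among the 6 with a gene name were Serpina1b, a probe each of the plasma proteins albumin (Alb) and transthyretin (Ttr), 2 probes of the mitochondrial gene CYTB, and a probe of the lysyl oxidase gene Loxl2. That Alb probe stood at -1.28 and -1.35 on the high-fat arrays, against 0.59 and 0.74 on the plain arrays, with the same signs as antitrypsin. Another Alb probe was nearly equal to it, at -1.28 and -1.32 against 0.59 and 0.74. A further Alb probe differed, at -1.28 and -1.35 on the high-fat arrays, against -0.02 and -1.28 on the plain 24-week and 6-week arrays. In limma it was lower against chow (mean -0.98 ± 0.23, adjusted p = 0.0408) and not called for high fat (adjusted p = 0.119). Of the 12 probes, 10 had a deposited value between 0.2 and 0.27 on the plain 6-week array. Without intensities, saturation of these spots was not tested. Serpina1b was marked on 3 arrays, Serpina1a on 2 and Serpina1e on 1, the high-fat 6-week array. The antitrypsin ratios, differences and calls are printed here and below, but because of those marks their size is not interpreted.

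**Figure D2:**
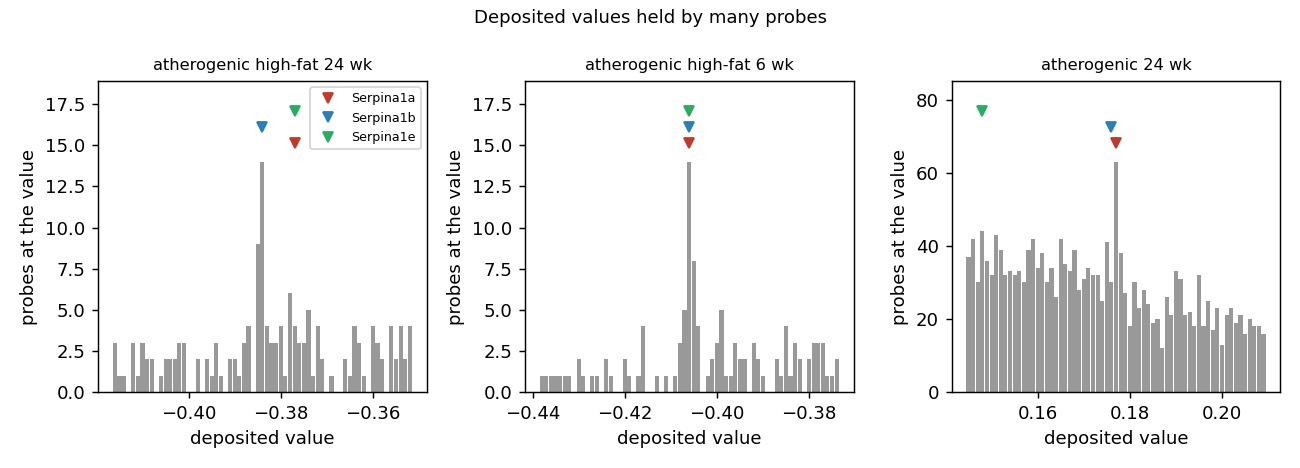
Number of probes (vertical axis) at each deposited value (horizontal axis, steps of the last deposited decimal) around the repeated value of the high-fat 24-week, high-fat 6-week and plain 24-week arrays, with triangles at the values of Serpina1a, Serpina1b and Serpina1e. All 3 triangles lie on the column of 14 probes at -0.406 on the high-fat 6-week array.

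The 3 antitrypsin genes lie in 1 cluster with the other clade A members of the array on chromosome 12 of the GRCm38.p6 assembly. Their RefSeq promoters, 250 bases before to 50 after the annotated start, are shown because the 3 probes had like ratios and the genes are near-copies, so that binding of 1 probe by RNA of several of them cannot be told apart. The promoter of Serpinb2, the member farthest from chow, is shown beside them for contrast. Capitals mark GTTAAT, a core of the binding site of the hepatocyte factor HNF1, and TTGCNNAA, a C/EBP-type site; both strands were searched and no marked sites overlapped.
Serpina1a (chr12:103863570-103863869, minus strand): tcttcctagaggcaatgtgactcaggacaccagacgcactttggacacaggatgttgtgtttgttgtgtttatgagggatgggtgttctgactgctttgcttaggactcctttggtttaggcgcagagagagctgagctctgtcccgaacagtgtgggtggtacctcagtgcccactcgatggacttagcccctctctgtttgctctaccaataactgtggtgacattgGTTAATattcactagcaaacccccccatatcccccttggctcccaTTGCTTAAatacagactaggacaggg
Serpina1b (chr12:103738140-103738439, minus strand): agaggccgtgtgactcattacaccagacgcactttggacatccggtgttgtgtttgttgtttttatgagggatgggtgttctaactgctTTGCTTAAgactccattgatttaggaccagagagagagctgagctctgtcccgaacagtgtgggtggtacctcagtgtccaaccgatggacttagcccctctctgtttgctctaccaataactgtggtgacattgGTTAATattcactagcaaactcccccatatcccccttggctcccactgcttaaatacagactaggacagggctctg
Serpina1e (chr12:103956848-103957147, minus strand): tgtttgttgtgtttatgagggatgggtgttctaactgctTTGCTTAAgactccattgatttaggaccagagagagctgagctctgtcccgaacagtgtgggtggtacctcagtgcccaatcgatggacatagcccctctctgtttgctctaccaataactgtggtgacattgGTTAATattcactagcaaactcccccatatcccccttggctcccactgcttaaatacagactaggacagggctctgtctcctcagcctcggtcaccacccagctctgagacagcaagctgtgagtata
Serpinb2 (chr1:107511173-107511472, plus strand): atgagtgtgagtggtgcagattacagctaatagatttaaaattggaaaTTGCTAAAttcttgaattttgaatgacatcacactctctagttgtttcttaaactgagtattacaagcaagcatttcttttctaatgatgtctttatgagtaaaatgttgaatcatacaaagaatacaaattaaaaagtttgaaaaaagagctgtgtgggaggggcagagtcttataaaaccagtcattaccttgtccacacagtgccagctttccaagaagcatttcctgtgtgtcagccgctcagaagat
Aligned promoters of Serpina1b and Serpina1e were 98.4% identical over 248 positions, Serpina1a and Serpina1e 95.9% over 243, and Serpina1a and Serpina1b 94.2% over 292. GTTAAT was found in 3 of the 13 secreted member genes with a promoter in the table, all of them antitrypsin genes. It was found in 2 of 18 genes of the other clades, Serpinb8 and Serpini2, and in 7.1% of all 32851 promoters. TTGCNNAA was found in 7 of 13 secreted member genes, among them the 3 near-identical antitrypsin genes, in 2 of 18 others and in 10.8% of all promoters. A member gene was counted where any of its promoters matched, while the shares over all promoters count single promoters, so these are unlike units. A consensus of the inflammatory factor NF-kB, searched the same way, was found in no member promoter and in 0.411% of all promoters. These matches describe letters in a window, not bound sites.

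Other hepatocyte-secreted members were measured away from the repeated values, and corticosteroid-binding globulin had the clearest difference between diets. Serpina6, which carries glucocorticoids in plasma and inhibits no protease, stood at 0.26 and 0.34 on the high-fat 24-week and 6-week arrays, against -0.50 and -1.11 on the plain 24-week and 6-week arrays. High-fat and plain arrays did not overlap and lay on opposite sides of chow, as they did for 23.3% of all probes. With added fat the ratio was higher by 1.10 ± 0.19 on the log2 scale (SE; limma across all probes, adjusted p = 0.0209), a 2.15-fold difference. It was 0.76 at 24 weeks and 1.45 at 6 weeks.

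Pigment epithelium-derived factor, the product of Serpinf1 and an inhibitor of vessel growth without protease-inhibiting activity, had a similar shape with a wider spread. It stood at -0.34 and 0.24 on the high-fat 24-week and 6-week arrays, against -0.65 and -1.57 on the plain 24-week and 6-week arrays. The high-fat difference of 1.06 ± 0.32 did not pass (adjusted p = 0.0612). Heparin cofactor II, Serpind1, which inhibits thrombin, stood at 0.16 and -0.02 on the high-fat arrays, against -0.14 and -0.67 on the plain arrays. Its high-fat difference was 0.47 ± 0.15 (adjusted p = 0.0761).

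The plasma inhibitors antithrombin and alpha-2-antiplasmin lay below chow on each array, as did 18.9% of all probes. Each was near 0 on 1 array (-0.01 and -0.02), and whether their means passed depended on the model. Antithrombin, Serpinc1, stood at -0.41 and -0.80 on the high-fat 24-week and 6-week arrays, against -0.01 and -0.40 on the plain 24-week and 6-week arrays. Its mean over the 4 arrays was -0.40 ± 0.13 (adjusted p = 0.106). Alpha-2-antiplasmin, Serpinf2, stood at -0.02 and -0.37 on the high-fat arrays, against -0.10 and -0.60 on the plain arrays, with a mean of -0.27 ± 0.12 (adjusted p = 0.201). With high fat and duration as terms of the limma model both means passed (adjusted p = 0.00534 for Serpinc1 and 0.0252 for Serpinf2). That model has 1 residual degree of freedom, and 36.5% of all probes passed in it, 17.5% of all probes being lower. In both genes the 24-week array was closer to chow than the 6-week array of the same diet. The 24-week minus 6-week difference was 0.39 ± 0.14 for Serpinc1 and 0.43 ± 0.14 for Serpinf2 (adjusted p = 0.475 and 0.451). Serpina10, which inhibits factor Xa together with protein Z, had probes at means of 0.25 ± 0.10 and 0.07 ± 0.10, neither of which passed as the mean of 4 arrays. The Serpina10 probes lay on opposite sides of 0 for high fat minus plain, at -0.24 and 0.23.

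C1 inhibitor, Serping1, which restrains complement and plasma kallikrein and is made by liver and by macrophages, was counted with the other clades although it is a plasma protein. It stood at -1.23 and -1.07 on the high-fat 24-week and 6-week arrays, against -0.19 and -0.37 on the plain 24-week and 6-week arrays. All 4 arrays lay below chow, as for 18.9% of all probes, and the high-fat arrays lay below both plain ones. How many of all probes separated by diet on the same side of chow was not counted. The high-fat minus plain difference was -0.88 ± 0.15 (adjusted p = 0.0216), a 1.83-fold lower ratio to chow with added fat. The mean against chow, -0.72 ± 0.19, did not pass (adjusted p = 0.0594). It passed with high fat and duration as terms of the limma model (adjusted p = 0.000843), as did 36.5% of all probes (17.5% lower). Its deposited values were not at repeated values.

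The Serpina3 group, counterparts of human antichymotrypsin, was represented by Serpina3a, Serpina3i and Serpina3n, none of which passed in the reported comparisons. Serpina3n, an acute phase gene whose product inhibits granzyme B and elastase, stood at -0.03 and 0.05 on the high-fat 24-week and 6-week arrays, against 0.97 and -0.50 on the plain 24-week and 6-week arrays. The plain arrays thus lay on either side of chow, and the mean was 0.12 ± 0.22. Serpina3a stood at -0.29 and -0.41 on the high-fat arrays, against 0.04 and 0.15 on the plain arrays. Serpina3i lay between -0.43 and 0.18. Serpina12, the adipokine vaspin, stood at -0.58 and -0.36 on the high-fat arrays, against -0.28 and 0.97 on the plain arrays, so that a single array, the plain 6-week one, was above chow.

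Against chow, 8 of 39 serpin probes passed an adjusted p of 0.05 (20.5%, against 10.3% of all 27870 probes tested). The test was the mean of the 4 arrays against 0 in limma with Benjamini-Hochberg adjustment, so its p-values rest on how far 4 unlike conditions scatter and say nothing of animals. Of the 8, 1 was higher (5.32% of all probes were) and 7 were lower (5.01% of all probes were). By sign alone 8 serpin probes were above chow on every array and 13 below, where 19% and 18.9% of all probes were. The 8 called probes were spread over clade A, with 3, and clade B, with 5. With high fat and duration as terms, which takes the differences between diets and times out of the error, 25 serpin probes passed, 8 higher and 17 lower (36.5% of all probes, 19.1% higher and 17.5% lower). The 17 gained were those of Serping1, Serpinb9, Serpinc1, Serpinf1, Serpinf2, Serpinh1, Serpini1, Serpina1a, Serpina1b, Serpina1e, Serpinb5, Serpinb6b, Serpinb7, Serpinb9b, Serpinb9c, Serpinb12 and a probe of Serpina10. With the arrays scaled to a common spread 11 passed, 4 higher and 7 lower (13.2% of all probes, 7.11% higher and 6.07% lower). Calls against chow refer to the mean of 4 arrays unless another model is named.

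Serpinb2, plasminogen activator inhibitor 2 of macrophages and keratinocytes, had the largest fall. It stood at -1.77 and -2.09 on the high-fat 24-week and 6-week arrays, against -2.38 and -1.63 on the plain 24-week and 6-week arrays. Every array was far below chow, with no order by diet or duration. The mean log2 ratio was -1.97 ± 0.14 (limma, adjusted p = 0.000945), a level 3.92-fold lower than in chow livers.

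Serpinb11 also fell, standing at -0.96 and -0.92 on the high-fat 24-week and 6-week arrays, against -1.35 and -0.81 on the plain 24-week and 6-week arrays (mean -1.01 ± 0.11, adjusted p = 0.00444). Serpinb1a, the inhibitor of neutrophil elastase and cathepsin G inside leukocytes, stood at -0.83 and -0.66 on the high-fat arrays, against -1.20 and -0.61 on the plain arrays. Its mean of -0.83 ± 0.12 passed (adjusted p = 0.0102). The neutrophil elastase gene Elane, its target, had a mean of -0.64 ± 0.09 and also fell (adjusted p = 0.00781). Of the other probes of the neutrophil list, S100a8 (mean 2.34), S100a9 (2.70) and both of Lcn2 (2.10 and 2.33) rose. Mpo lay below chow on all 4 arrays (mean -0.32, adjusted p = 0.0668), and Ngp and Camp, with means of 0.54 and 0.55, did not pass. Serpinb8 fell by less, at -0.54 and -0.23 on the high-fat arrays, against -0.55 and -0.41 on the plain arrays (mean -0.43 ± 0.10, adjusted p = 0.0376). That call ended whichever array was left out, with adjusted p between 0.0628 and 0.153.

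Of clade A, Serpina1f, Serpina9 and Serpina4-ps1 fell. Serpina1f, a further member of the antitrypsin group, stood at -0.79 and -0.97 on the high-fat 24-week and 6-week arrays, against -0.73 and -1.09 on the plain 24-week and 6-week arrays (mean -0.89 ± 0.10, adjusted p = 0.0043). The ratios of this probe did not follow those of Serpina1a, Serpina1b and Serpina1e. Serpina9, centerin of germinal centre B cells, stood at -0.58 and -0.63 on the high-fat arrays, against -1.07 and -0.87 on the plain arrays (mean -0.79 ± 0.11, adjusted p = 0.00901). The pseudogene Serpina4-ps1 stood at -0.32 and -0.61 on the high-fat arrays, against -0.65 and -0.72 on the plain arrays (mean -0.58 ± 0.10, adjusted p = 0.0187). Without the plain 24-week array the calls of Serpina9 (adjusted p = 0.0529) and Serpina4-ps1 (0.1) ended, and that of Serpina4-ps1 also ended without the high-fat 6-week array (0.0603). Whether the probes of these genes measured liver RNA above background was not tested.

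Serpinb6a was the 1 serpin that rose against chow by the mean of 4 arrays; with scaled arrays Serpinb9, Serpinh1 and Serpini1 passed too (adjusted p = 0.0329, 0.049 and 0.0457). This widely expressed intracellular inhibitor stood at 0.74 and 0.72 on the high-fat 24-week and 6-week arrays, against 0.97 and 0.95 on the plain 24-week and 6-week arrays. All 4 arrays were close to each other and above chow, with a mean of 0.85 ± 0.09 (adjusted p = 0.0043) and a 1.80-fold higher level. Its paralogs Serpinb6b and Serpinb6c had means of 0.25 ± 0.12 and 0.01 ± 0.10 and did not pass.

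**Figure D3:**
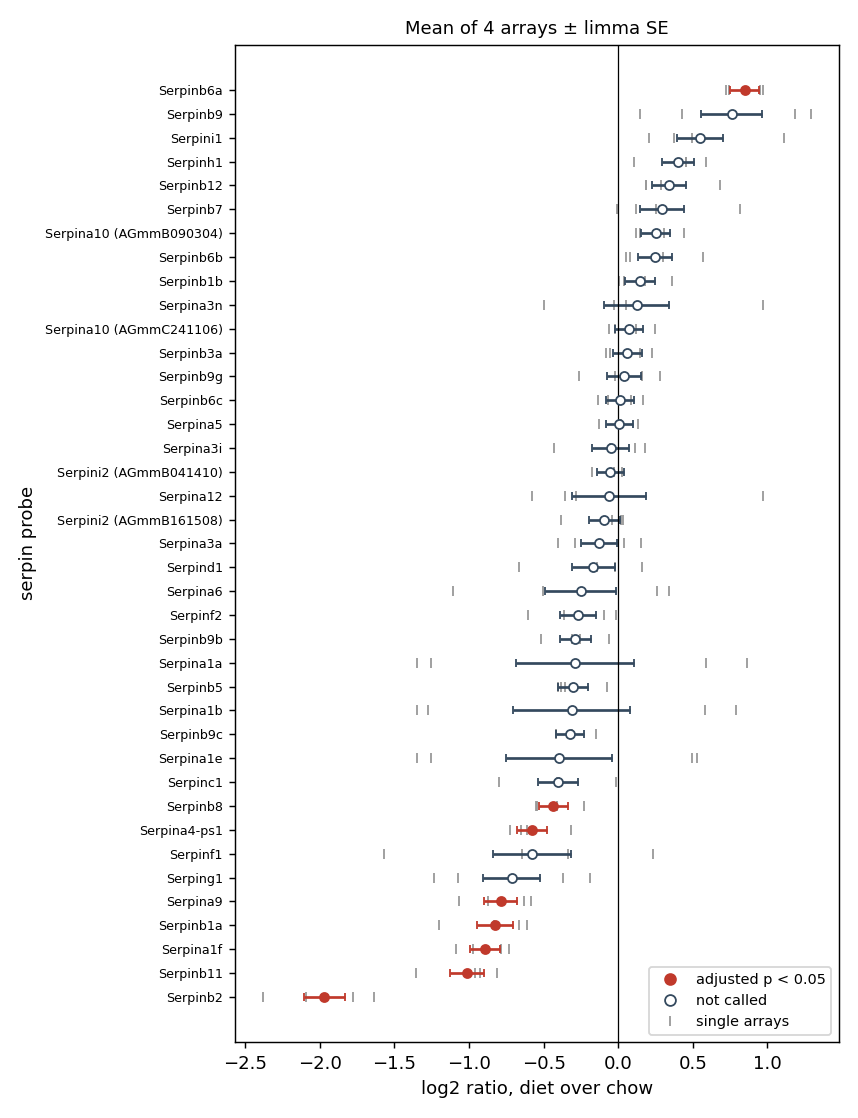
Mean log2 ratio of diet over chow across the 4 arrays (horizontal axis, points with limma SE) for each serpin probe (vertical axis, sorted), with single arrays as grey ticks and called probes filled in red. Serpinb2 lies apart at -1.97, Serpinb6a at 0.85 is the called probe above 0, and the wide bars of Serpina1a, Serpina1b and Serpina1e reflect arrays on both sides of 0.

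Serpinb9, which protects lymphocytes and antigen-presenting cells from granzyme B, had ratios that separated by diet. It stood at 0.15 and 0.43 on the high-fat 24-week and 6-week arrays, against 1.18 and 1.29 on the plain 24-week and 6-week arrays. All 4 arrays were above chow, as for 19% of all probes, and the plain arrays lay above both high-fat ones. The share of all probes with such an order was not counted. The high-fat minus plain difference was -0.95 ± 0.14 (adjusted p = 0.0181), a 1.93-fold lower ratio to chow with added fat. Against chow its mean of 0.76 ± 0.20 did not pass (adjusted p = 0.0606), but it passed without the high-fat 24-week array (0.97, adjusted p = 0.0293). Granzyme B itself, Gzmb, had a mean of -0.12 ± 0.09 and did not pass. The neighbouring Serpinb9b, Serpinb9c and Serpinb9g had means of -0.29, -0.32 and 0.04, none of which passed. The remaining 8 probes, for Serpina5, Serpinb1b, Serpinb3a, Serpinb5, Serpinb7, Serpinb12 and Serpini2, did not pass in these 3 comparisons. Their single-array ratios lay between -0.41, for Serpinb5, and 0.81, for Serpinb7, and their means between -0.30 and 0.34.

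Over all members, 6 of 39 serpin probes were called for high fat minus plain (15.4%, against 15.8% of all probes). Of these, 1 was higher with high fat (Serpina6; 8.75% of all probes were higher) and 5 were lower (7.07% of all probes were). In this fit the share called was close to that of the whole array. With centred arrays 6 serpin probes were again called, while the calls over all probes went from 4411 to 3054. The 5 lower ones were Serpinb9, Serping1 and the antitrypsin probes Serpina1a, Serpina1b and Serpina1e, whose differences of -2.02, -2.0 and -1.81 carry the repeated-value marks. Without probes at repeated values 3 of 35 were called (15.8% of all probes). With scaled arrays 9 were called, the 3 gained being Serpinc1, Serpina3a and Serpina12, each lower (18.7% of all probes). This fit has 1 residual degree of freedom, and its error is pooled across probes. All 4 arrays were also fitted as 2 group means with a shared error, a choice made after seeing the data. The high-fat mean gave 9 calls against chow, 1 higher and 8 lower (7.72% of all probes, 3.64% higher and 4.08% lower). The plain mean gave 19, 10 higher and 9 lower (34.6% of all probes, 16.3% higher and 18.3% lower). On 10 serpin probes (25.6%) both high-fat arrays lay on one side of chow and both plain arrays on the other, as did 23.3% of all probes.

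**Figure D4:**
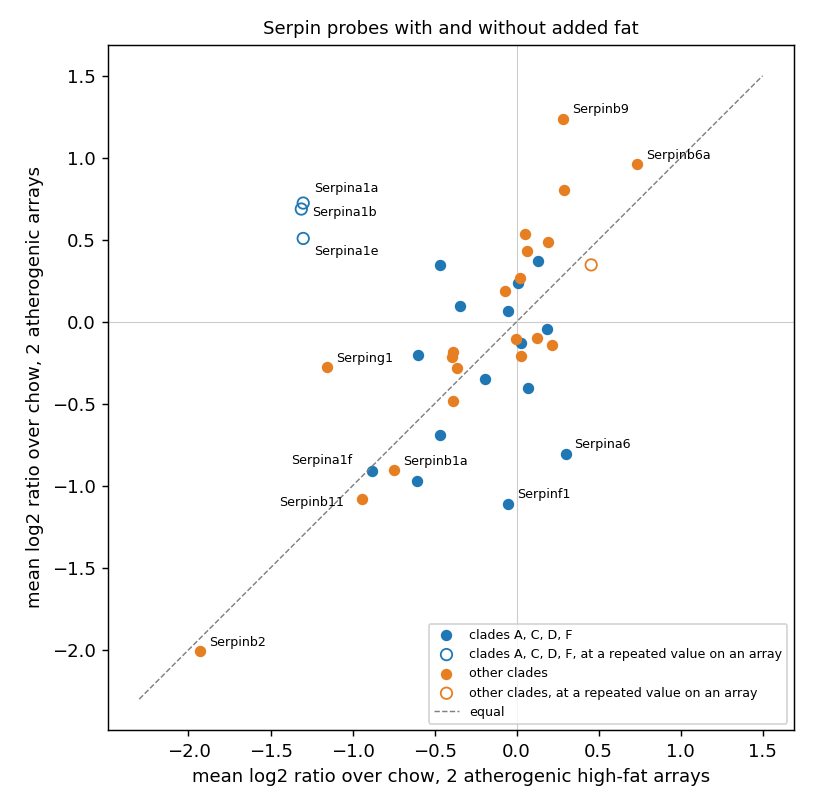
Mean log2 ratio over chow of the 2 high-fat arrays (horizontal axis) against that of the 2 plain arrays (vertical axis) for each serpin probe, blue for clades A, C, D and F and orange for the others, open where the probe lay at a repeated value on an array. Serpina6 and Serpinf1 lie below the dashed line of equality, Serpinb9 and Serping1 above it, and Serpinb2 on it at the lower left.

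For 24 against 6 weeks no serpin probe was called, nor was any other probe on the array (0% of 27870) in limma. At an unadjusted p under 0.05 there were 3 serpin probes and 2655 of all probes. The 3 were Serpina12 (-0.74 ± 0.24), Serpinf2 and Serpinc1. The number of arrays limits the difference that could be detected.

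Secreted clades A, C, D and F and the other clades were set side by side as a description, without a test. For diet over chow, 3 of 18 secreted probes fell and none rose, while 4 of 21 others fell and 1 rose. Over all probes 5.01% fell and 5.32% rose. The 3 that fell were those of Serpina1f, Serpina9 and the pseudogene Serpina4-ps1. The antitrypsin probes and those of Serpina3n, Serpina6, Serpina10, Serpinc1, Serpind1, Serpinf1 and Serpinf2 did not pass in this comparison. The median of the mean log2 ratios was -0.26 for secreted probes, 0.01 for the others and -0.01 for all probes. The secreted minus other difference of -0.27 came to -0.051 without the high-fat 24-week array and -0.050 without the high-fat 6-week array. It was -0.15 without probes at repeated values. By array the secreted median was -0.30 and -0.36 on the high-fat 24-week and 6-week arrays, against -0.08 and -0.21 on the plain 24-week and 6-week arrays. The other clades had medians of -0.01 and 0.02 on the high-fat arrays, against -0.03 and -0.15 on the plain arrays. Without the 3 antitrypsin probes the secreted medians were -0.05 and -0.13 on the high-fat arrays, against -0.14 and -0.50 on the plain arrays. Without those 3 probes the secreted medians were thus lower on the plain arrays, and with them on the high-fat arrays.

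Single arrays were also described by size. On the high-fat 24-week array 5 of 39 serpin probes lay at least 2-fold from chow, all lower (2.86% of all probes, 1.09% higher and 1.77% lower). On the high-fat 6-week array 5 did, all lower (2.31% of all probes, 0.812% higher and 1.5% lower). On the plain 24-week array 2 were higher and 4 lower (3.64% of all probes, 1.88% higher and 1.75% lower), and on the plain 6-week array 1 was higher and 4 lower (6.02% of all probes, 3.94% higher and 2.09% lower). On both high-fat arrays these were Serpina1a, Serpina1b, Serpina1e, Serpinb2 and Serping1. Without the 3 antitrypsin probes the count was 2 of 36 on each of these arrays. On the plain 24-week array Serpinb9 and Serpini1 were higher, at 1.18 and 1.11, and Serpinb2, Serpinb11, Serpinb1a and Serpina9 were lower. Serpini1, neuroserpin, an inhibitor of tissue plasminogen activator best known from neurons, stood at 0.21 and 0.38 on the high-fat arrays, against 1.11 and 0.49 on the plain arrays, with a mean of 0.55 ± 0.15 (adjusted p = 0.0707). Serpinh1, the collagen chaperone HSP47, stood at 0.46 on both high-fat arrays, against 0.59 and 0.10 on the plain 24-week and 6-week arrays. Its mean of 0.40 ± 0.11 did not pass (adjusted p = 0.0629), with the plain 24-week value at a repeated value. On the plain 6-week array Serpinb9 was higher, and Serpina1f, Serpina6, Serpinb2 and Serpinf1 were lower.

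Genes around the serpins were read against the same shares of all probes, 5.32% higher and 5.01% lower against chow and 8.75% higher and 7.07% lower for high fat. Of 30 measured proteases linked to serpins, Mmp7 and the lysosomal Ctss rose, by 2.94 ± 0.22 and 2.32 ± 0.17, and Elane and the urokinase gene Plau fell, Plau by 0.45 ± 0.10. Thrombin (F2) and plasma kallikrein (Klkb1), both made by hepatocytes, were higher with high fat than with the plain diet, by 0.62 ± 0.14 and 0.65 ± 0.15 (adjusted p = 0.0338 and 0.0339). Klk1 (-0.83 ± 0.14, adjusted p = 0.0206) and Htra1 (-1.07 ± 0.22, adjusted p = 0.0284) were lower. Of 6 measured genes on a list of receptors, cofactors and other proteins, Fgl1 (0.90 ± 0.14) and the receptor-associated protein gene Lrpap1 (0.41 ± 0.09) rose. For high fat the receptor gene Vldlr (-0.56) and the vitronectin gene Vtn (-1.17, at a repeated value on 1 array) were lower. Among 20 probes for 11 regulators of hepatocyte genes, probes of the same gene disagreed. For Cebpb, the C/EBP beta gene, 2 of 4 probes fell (-1.47 ± 0.18 and -1.32 ± 0.19) while the other two had means of -0.01 and -0.16. For Stat3, which transmits cytokine signals, 1 of 2 probes rose (0.41 ± 0.10) and the other had a mean of 0.16. For high fat, Onecut1 (-0.58) and 1 of 2 probes of Foxa2 (-0.83, the other 0.10) were lower.

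Markers of other cell types moved on the same arrays. Of 12 macrophage probes 9 rose and none fell, with list medians of 1.14 and 0.89 on the high-fat 24-week and 6-week arrays, against 1.36 and 1.17 on the plain 24-week and 6-week arrays. Of 8 neutrophil probes 4 rose and 1 fell, with medians of 1.37 and 0.65 on the high-fat arrays, against 1.91 and 1.60 on the plain arrays. Of 18 stellate cell and fibroblast probes 9 rose and none fell. The collagen chaperone Serpinh1 did not pass against chow in limma (mean 0.40 ± 0.11, adjusted p = 0.0629). The hepatocyte list held 17 probes, among them Serpina1a and Serpina1b. Without those, 1 of 15 rose and 1 fell against chow, with 6 of the 15 at repeated values. Their medians were -0.15 and -0.84 on the high-fat arrays, against 0.34 and 0.28 on the plain arrays. Against chow, no mast cell or basophil probe rose and 1 of 6 fell, no bile duct probe of 6 was called, and 1 of 8 endothelial and 1 of 6 platelet probes rose. For high fat minus plain, 3 of those 15 hepatocyte probes were higher and 7 lower, and 1 stellate cell and fibroblast probe was higher and 4 lower. In that comparison 3 macrophage, 2 neutrophil, 2 bile duct and 1 platelet probe were lower and none higher, and no mast cell or endothelial probe was called. The part of these cells in the ratios of Serpinb9, Serpinb2, Serpinb1a, Serpinb6a, Serping1 and Serpinh1 was not tested.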

How the data were processed

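Per the series' design text, the AceGene mouse oligonucleotide arrays were scanned on an Agilent G2505B scanner, read with GenePix Pro 4.1 and LOWESS-normalized in GeneSpring 7.2. The authors deposited signed log ratios, read here as log10 of Cy5 (diet) over Cy3 (chow). The base is inferred: the interquartile range on the plain 6-week array would be a 13.5% difference in ratio as base 2 and 52.4% as base 10. Direction follows the dyes in the labels. The sources used here name no background correction, spot filter or centring beyond LOWESS. Median deposited values were 0.006, 0.006, -0.005 and -0.019 on the high-fat 24-week, high-fat 6-week, plain 24-week and plain 6-week arrays.

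Values were converted to log2 and the 975 probes with a missing value were left out. Tests used limma 3.58.1 (lmFit, eBayes, two-sided, Benjamini-Hochberg over all probes) in R 4.3.3. All 4 arrays were averaged for diet over chow (3 residual degrees of freedom), and an additive model gave the effects of added fat and of weeks (1 residual degree of freedom). The code was tested on simulated data. A value counted as repeated where at least 10 probes held it and their number exceeded the mean of the 20 values on each side by over 5 times the square root of that mean; probes within 0.003 were marked. Values on each array are given for probes with an adjusted p under 0.05 in any comparison, an absolute log2 ratio of at least 1 on any array, or membership of Serpina1, Serpina3, Serpina6, Serpinc1, Serpind1, Serpinf1, Serpinf2, Serping1 or Serpinh1; other genes come from lists and are named where they passed. Serpina10, Serpina12, Serpinb6b, Serpinb6c, Serpinb9b, Serpinb9c, Serpinb9g, Gzmb, F2, Klkb1, Klk1, Htra1, Vldlr, Vtn, Onecut1, Foxa2, Mpo, Ngp, Camp, S100a8, Alb, Ttr, CYTB, Loxl2, S100a9 and Lcn2 were added after their values were seen. Symbols and promoters come from RefSeq (GRCm38.p6), which held promoters of 31 of 37 member genes. All 39 probe symbols match the current RefSeq symbols. The members and lists were chosen with earlier results of these data known. Alternatives were centring, scaling, gene means, robust eBayes, missing values, thresholds, other models and leaving out each array.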

Additional observations from a re-analysis of the deposited data

Results flagged for a closer look

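Differences between the high-fat and the plain diet that passed limma's test were those of Serpina6 (1.10), Serpinb9 (-0.95), Serping1 (-0.88), Serpina1a (-2.02), Serpina1b (-2.0) and Serpina1e (-1.81), in log2 units. Serpina1b lay at values shared by many probes on 3 arrays, Serpina1a on 2 and Serpina1e on 1. Serpina3a (-0.44) and the Serpina10 probe with the smaller mean (0.23) had both high-fat arrays on one side of chow and both plain arrays on the other, and neither passed the test (adjusted p = 0.0782 and 0.29). Serpina3i had both 24-week arrays below chow and both 6-week arrays above it, with a difference of -0.39 (adjusted p = 0.524).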

How the results depend on the processing

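No paired analysis was possible because each condition has 1 array and the labels carry no replicate numbers. Of 39 serpin probes, 8 were called against chow and 6 for high fat. With high fat and duration as terms 25 were called against chow (36.5% of all probes), and in a fit of 2 group means, chosen after seeing the data, 19 for the plain arrays and 9 for the high-fat arrays. At an adjusted p under 0.1 there were 14 against chow (18.4% of all probes) and 12 for high fat (30.1% of all probes), and without probes at repeated values 3 for high fat. Leaving out the high-fat 24-week, high-fat 6-week, plain 24-week or plain 6-week array gave 8, 6, 5 and 8 calls against chow. Over all probes 1514, 1767, 687 and 2023 were then called, against 2880 with all 4 arrays. Centring, robust eBayes, gene means and the filter on missing values kept both counts within 1.5 times, as did scaling (11 and 9). The counts over all probes moved. With centring 2667 were called against chow and 3054 for high fat, where 2880 and 4411 were as reported. Gene means gave 1640 and 1541 genes in all, and scaling 13.2% and 18.7% of all probes. The secreted minus other median against chow, -0.27, was between -0.26 and -0.050 with an array left out (-0.051 and -0.050 without the high-fat 24-week and 6-week array). Without probes at repeated values it was -0.15. For high fat that difference was 0.13, against 0.35 without probes at repeated values and -0.047 with hepatocyte-secreted members alone, a list chosen after seeing the data.

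With 1.5-fold in place of 2-fold, 9, 12, 13 and 17 serpin probes were counted on the high-fat 24-week, high-fat 6-week, plain 24-week and plain 6-week arrays. The share of all probes at that cut was not counted, so these counts are not read as a result about serpins. The standard deviation of the log2 ratios over all probes was 0.39, 0.37, 0.46 and 0.53 on the same arrays. With the deposited values read as natural logarithms the 2-fold counts were 0, 0, 1 and 0, and as base 2 all were 0. With scaling the plain 6-week count was 2. With an array left out, means against chow that were not called spanned 0: Serpina1a -0.67 to 0.065 (0.033 and 0.065 without the high-fat 24-week and 6-week array), Serpina1b -0.68 to 0.033 (0.0089 and 0.033 without the same arrays), Serpina12 -0.41 to 0.11 (0.11, 0.038 and 0.012 without the high-fat 24-week, high-fat 6-week and plain 24-week array), Serpina6 -0.45 to 0.032 (0.032 without the plain 6-week array), and Serpina3n -0.16 to 0.33 and Serpina3i -0.13 to 0.078 (-0.16 and 0.078 without the plain 24-week array). For high fat, scaling turned the uncalled values of Serpinb6a (0.13), Serpina1f (-0.37), Serpinb11 (-0.28), Serpina4-ps1 (-0.024), Serpinb8 (-0.087), Serpinb2 (-0.75) and Serpinb1a (-0.18), and centring that of Serpina1f (-0.030). The cause was not tested. The high-fat calls of Serpina6, Serpinb9 and Serping1 held with centring, scaling and robust eBayes. Leaving out an array leaves the high-fat model without residual degrees of freedom and was not run.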
